A study of Mus musculus with 4 samples.

Results

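The genes described here are the nuclear genes for the subunits of mitochondrial complexes I to V, the respiratory chain and the ATP synthase. They were chosen by the symbol of the array platform: symbols starting with Ndufa, Ndufb, Ndufc, Ndufs or Ndufv (assembly factors of the Ndufaf series left out), Sdha to Sdhd, Cyc1, and symbols starting with Uqcr, Cox4i, Cox5, Cox6, Cox7, Cox8 or Atp5. Each gene was read from its probe set with the highest mean level, and 83 of the 18194 genes on the array met the rule. Of these, 34 were assigned to complex I, 4 to complex II, 9 to complex III, 19 to complex IV and 17 to complex V. Ndufa4 and its relative Ndufa4l2 carry a complex I symbol and were counted with complex IV, where the Ndufa4 protein is now placed.

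The study compared 2 wild type and 2 a1H knockout samples of trachea from mouse embryos at embryonic day 16, all on a C57BL/6 background, 1 Affymetrix array per sample. Total RNA from whole trachea was amplified from 50 ng before labelling. The labels do not say whether a sample was 1 embryo or a pool, nor whether the 2 samples of a group came from separate litters, so p-values measure only the spread between these arrays. In bulk tissue, fewer cells of a type and less RNA per cell cannot be told apart.

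The respiratory chain moves electrons from NADH and succinate to oxygen and pumps protons across the inner mitochondrial membrane, and the ATP synthase uses the return of those protons to make ATP. Complex I takes electrons from NADH, complex II from succinate, complex III passes them to cytochrome c, complex IV reduces oxygen, and complex V is the ATP synthase. Except for complex II, each complex also holds subunits encoded by mitochondrial DNA. Some complex IV subunits exist as pairs, 1 form in nearly all cells and another mainly in heart and skeletal muscle, lung or testis, so airway tissue with attached muscle can show both.

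Signals are deposited intensities on a linear scale, differences are knockout minus wild type on the log2(signal + 16) scale, and a gene was tested when its mean level reached a signal of 397. That filter kept 78 of the 83 subunit genes and 11694 genes in all. Ndufb1, Ndufb4, Cox4i2, Cox7b2 and Cox8c were below it. Cacna1h, which encodes the calcium channel subunit alpha 1H, read 630 and 538 on the wild type arrays and 981 and 631 on the knockout arrays, a difference of 0.43 ± 0.32 (SE) with adjusted p = 0.875 in limma. Its signal was not lower in the group labelled knockout, and where its probe set lies relative to the altered part of the gene is not given in the sources used here, so directions below refer to labelled groups. The arrays were scaled to nearly the same trimmed mean (1500), but their 99th percentiles ran from 15924 to 22432 and were higher on both replicate 2 arrays. The cartilage gene Col2a1 read 14609 to 27724 and the airway transcription factor Nkx2-1 only 145 to 337.

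The promoters of several subunits are shown first because respiratory chain genes are known for shared binding motifs of NRF1, ETS-family factors (GABP among them) and YY1. RefSeq promoter windows of 300 bases on GRCm38.p6, from 250 before to 50 after the annotated start, were found for 67 of the 83 genes, as 72 windows. Below are the 250 bases before the start on the gene's own strand, with matches to the NRF1 and ETS letters in capitals. Sdha had 3 NRF1 matches, Cox6a1 had NRF1 and ETS matches, and Uqcr11 an ETS match. Ndufa5 and Atp5g2 each had an NRF1 match. Cox7a1 and Cox8b, the forms known from heart and skeletal muscle, had no match to NRF1, ETS, YY1 or MEF2 letters. Lack of a match is not particular to muscle forms. Over the 72 subunit windows, NRF1 letters were in 22.2%, ETS in 23.6%, YY1 in 13.9% and MEF2 in 0.
Sdha, minus strand, chr13:74350241-74350490: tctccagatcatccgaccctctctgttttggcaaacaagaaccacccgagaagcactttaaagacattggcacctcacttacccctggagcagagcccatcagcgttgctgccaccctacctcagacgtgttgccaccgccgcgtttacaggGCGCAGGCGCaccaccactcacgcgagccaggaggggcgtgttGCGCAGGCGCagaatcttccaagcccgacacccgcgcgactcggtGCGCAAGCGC
Ndufa5, minus strand, chr6:24527691-24527940: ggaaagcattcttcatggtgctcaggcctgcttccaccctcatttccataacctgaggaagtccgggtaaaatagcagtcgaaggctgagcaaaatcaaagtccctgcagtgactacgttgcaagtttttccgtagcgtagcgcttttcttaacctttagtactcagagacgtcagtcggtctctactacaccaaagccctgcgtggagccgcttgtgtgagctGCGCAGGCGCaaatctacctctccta
Cox6a1, minus strand, chr5:115348959-115349208: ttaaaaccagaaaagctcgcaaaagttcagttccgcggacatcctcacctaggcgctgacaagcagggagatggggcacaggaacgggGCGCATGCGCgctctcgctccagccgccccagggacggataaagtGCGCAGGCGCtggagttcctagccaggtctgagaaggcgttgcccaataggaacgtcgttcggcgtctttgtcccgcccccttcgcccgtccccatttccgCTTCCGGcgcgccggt
Atp5g2, minus strand, chr15:102671048-102671297: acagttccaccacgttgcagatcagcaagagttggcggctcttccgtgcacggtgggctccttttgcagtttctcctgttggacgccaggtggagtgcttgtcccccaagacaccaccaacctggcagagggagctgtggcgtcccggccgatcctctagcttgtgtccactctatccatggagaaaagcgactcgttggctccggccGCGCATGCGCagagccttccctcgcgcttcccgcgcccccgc
Uqcr11, minus strand, chr10:80406822-80407071: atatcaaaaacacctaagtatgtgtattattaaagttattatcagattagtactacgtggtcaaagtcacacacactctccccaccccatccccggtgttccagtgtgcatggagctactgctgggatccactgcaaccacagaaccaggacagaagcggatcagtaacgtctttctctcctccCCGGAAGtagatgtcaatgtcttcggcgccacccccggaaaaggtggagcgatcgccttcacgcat
Cox7a1, plus strand, chr7:30183921-30184170: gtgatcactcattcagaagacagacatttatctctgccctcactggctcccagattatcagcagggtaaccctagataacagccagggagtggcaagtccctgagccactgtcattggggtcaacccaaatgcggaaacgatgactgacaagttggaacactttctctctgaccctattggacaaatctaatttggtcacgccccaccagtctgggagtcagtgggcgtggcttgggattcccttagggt
Cox8b, minus strand, chr7:140900447-140900696: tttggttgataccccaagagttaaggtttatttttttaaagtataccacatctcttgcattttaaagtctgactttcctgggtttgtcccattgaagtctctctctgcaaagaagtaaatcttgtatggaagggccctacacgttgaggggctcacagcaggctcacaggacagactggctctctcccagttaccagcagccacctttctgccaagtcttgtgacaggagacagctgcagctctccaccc

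Letters were searched on both strands, and overlapping matches of different motifs were allowed. NRF1 letters (GCGCANGCGC or GCGCNTGCGC) were in 16 of the 72 subunit windows, or 22.2%, against 9.69% of the 12122 windows of tested genes and 4.6% of all 32851 windows. ETS letters (CCGGAAG or CTTCCGG) were in 23.6% of subunit windows, against 16.7% and 8.86%. YY1 letters (AAGATGG or CCATCTT) were in 13.9%, against 6.81% and 6.34%. By complex, NRF1 letters were in 6 of 33 windows for complex I, 2 of 3 for complex II, 1 of 5 for complex III, 1 of 13 for complex IV and 6 of 18 for complex V. The MEF2 motif, a muscle element, was in 0 of the 72 windows, against 1.87% of windows of tested genes. The short E-box CANNTG, common everywhere, was in 66.7% of subunit windows, against 63.7% and 72.3%. A match describes letters and is not a measured binding site, and windows of 1 gene overlap where its starts lie close together.

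Most subunit genes read slightly higher in the labelled knockout, by amounts that did not pass the test for any gene. No gene of 11694 had an adjusted p under 0.05 (0% of genes, limma with Benjamini-Hochberg adjustment, smallest adjusted p = 0.875), the 78 subunits included. At an unadjusted p under 0.05, 2 subunits were higher (Atp5l and Ndufb2), against 2.83% of all genes, and 0 were lower, against 1.75%. The difference was above 0 for 71 of the 78 subunits, against 55.9% of all genes tested. The median difference of the subunits was 0.24, against 0.04 over all genes, and single subunits ranged from -0.25 to 0.65. None reached a 2-fold difference, against 1% of all genes. An SE of 0.24, close to the median of the subunits, gives a 95% interval of about 0.57 to either side, wider than most of these differences.

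Most subunits had the same direction within both replicate numbers, although the labels do not say that samples of the same number were paired. Within both numbers, 67 subunits were higher in the labelled knockout, against 36% of all genes, and 1 (Uqcrb) was lower, against 26.3%. The medians were 0.22 for the replicate 1 arrays and 0.23 for the replicate 2 arrays. The groups did not overlap, with both knockout arrays above both wild type arrays, for 24 subunits, or 30.8%, against 21.5% of all genes. No tested subunit had both knockout arrays below both wild type arrays, against 14.6%. Subunit genes are bright on this array, and 68 of the 78 were at or above the 90th percentile of level of all probe sets. Among the 2995 genes that bright, 55.1% had a difference above 0, against 64 of these 68 subunits. Of these 68, 61 were higher within both numbers, against 36.8%, and 19 did not overlap, or 27.9%, against 15.6%.

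**Figure D1:**
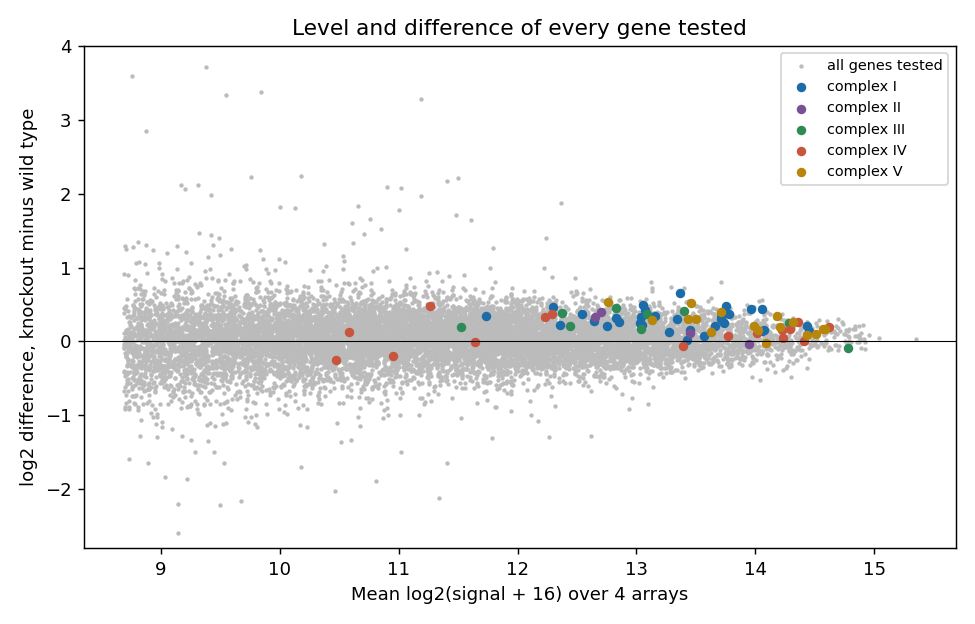
Mean level of each tested gene over the 4 arrays, as log2(signal + 16), on the horizontal axis and the log2 difference, knockout minus wild type, on the vertical axis, with all 11694 genes tested in grey and the subunits coloured by complex. The subunits sit at the bright end and mostly just above 0, between -0.25 and 0.65.

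Most subunits moved together from array to array, with wild type replicate 1 at the low end and knockout replicate 2 at the high end. Relative to each gene's own mean over the 4 arrays, the median subunit lay at -0.25 on wild type replicate 1, 0.01 on wild type replicate 2, -0.06 on knockout replicate 1 and 0.28 on knockout replicate 2. Knockout replicate 2 gave the highest value for 59 of the 78 subunits and wild type replicate 1 the lowest for 65. Among all 11694 genes tested, these numbers were 3683 and 2445. On the same scale the 2995 bright genes lay at -0.08, 0.06, -0.08 and 0.11, so the pattern of the replicate 2 arrays above the replicate 1 arrays was shared in part by bright genes of all kinds. After quantile normalisation, which gives every array the same distribution, bright genes lay between -0.02 and 0.01, and the subunits lay at -0.16, -0.05, 0.08 and 0.09, both knockout arrays above both wild type arrays. The median difference was then 0.19. Without knockout replicate 2 the median difference was 0.04, against 0.05 over all genes, with 47 of 78 subunits above 0, against 57.2%. The subunits then stood no higher than all genes. Without wild type replicate 1 the median was 0.09, against 0.06, with 52 above 0, against 57.2%. It was 0.36 without knockout replicate 1 and 0.41 without wild type replicate 2, against 0.02 over all genes in each.

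**Figure D2:**
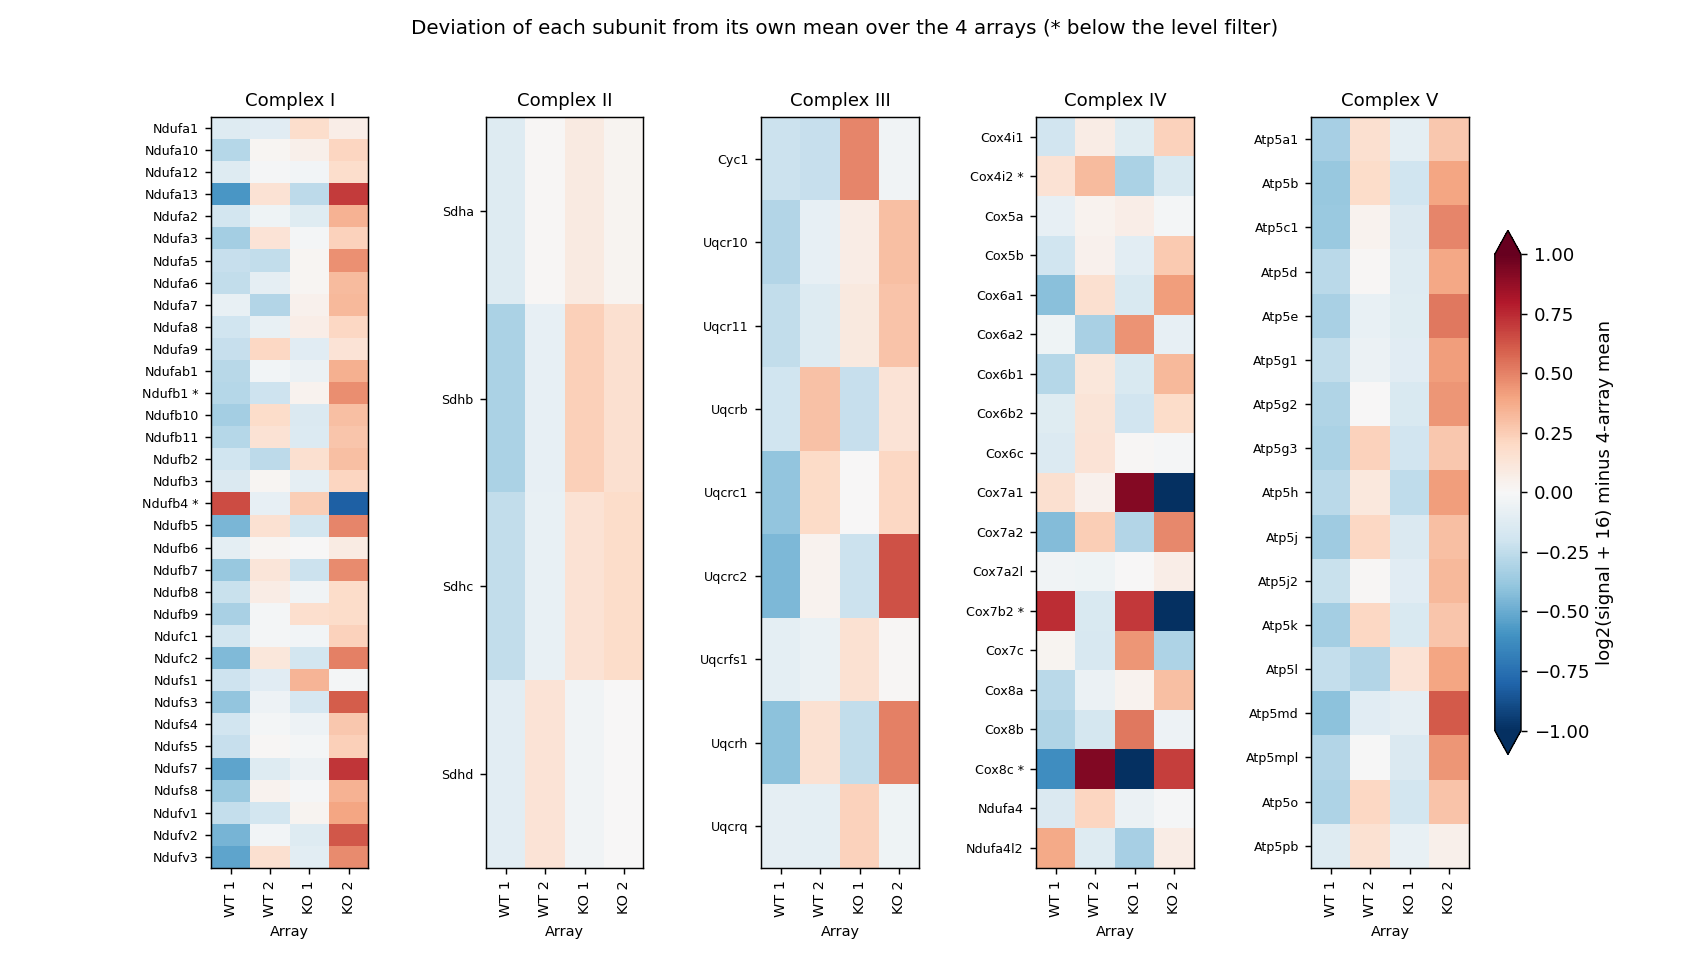
Each subunit's log2(signal + 16) on the 4 arrays minus its own mean over them, from blue (lower) to red (higher), 1 panel per complex, with an asterisk at the 5 genes below the level filter. Knockout replicate 2 (KO 2) is mostly red and wild type replicate 1 (WT 1) mostly blue in complexes I and V, and complex IV holds rows of other patterns.

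Markers of other tissues also differed between single arrays. Placental genes were highest on knockout replicate 2 for 9 of 9 genes on the array, with summed signals of 1080 and 1062 on the wild type arrays and 720 and 130810 on the knockout arrays. Their part in the subunit values, which were also highest on that array, was not tested. Genes of proliferating cells were higher in the labelled knockout for 19 of 19, against 55.9% of all genes tested. Their median difference was 0.35 (0.28 for replicate 1 and 0.49 for replicate 2), and their part in the subunit values was not tested.

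Complexes I, II, III and V had medians between 0.21 and 0.29, and complex IV the lowest, 0.12. All 32 tested complex I subunits read higher in the labelled knockout (median 0.29), as did 3 of 4 in complex II (0.22), 8 of 9 in complex III (0.25), 12 of 16 in complex IV and 16 of 17 in complex V (0.21). The groups did not overlap for 11, 3, 5, 3 and 2 of them, or 34.4%, 75%, 55.6%, 18.8% and 11.8%. The share was 21.5% of all genes tested and 15.6% of genes at or above the 90th percentile of level. Complexes IV and V were near these shares. To compare complexes, the median deviation of one was taken from that of another on each array. Complex I minus complex IV was -0.10 and -0.06 on the wild type arrays and -0.005 and 0.23 on the knockout arrays, a difference of 0.19. Complex III minus complex IV was -0.11 and -0.11 against 0.10 and 0.13, a difference of 0.23. Complex II minus complex IV was -0.05 and -0.08 against 0.14 and 0.02, a difference of 0.14. These were the 3 of 10 pairs of complexes whose groups did not overlap. All 3 include complex IV, so they are not separate observations. An exact two-sided permutation test over 4 arrays cannot go below 0.333, the p of all 3. That is also the share of pairs expected not to overlap if the labels made no difference, and 3 of 10 is near it. Complex IV minus complex V overlapped, at 0.17 and 0.01 against 0.12 and -0.32, with exact p = 0.667, so complex IV was not set apart from complex V. The medians of complexes IV and V changed sign without knockout replicate 2, to -0.0024 and -0.01, and that of complex IV also without wild type replicate 1, to -0.02.

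**Figure D3:**
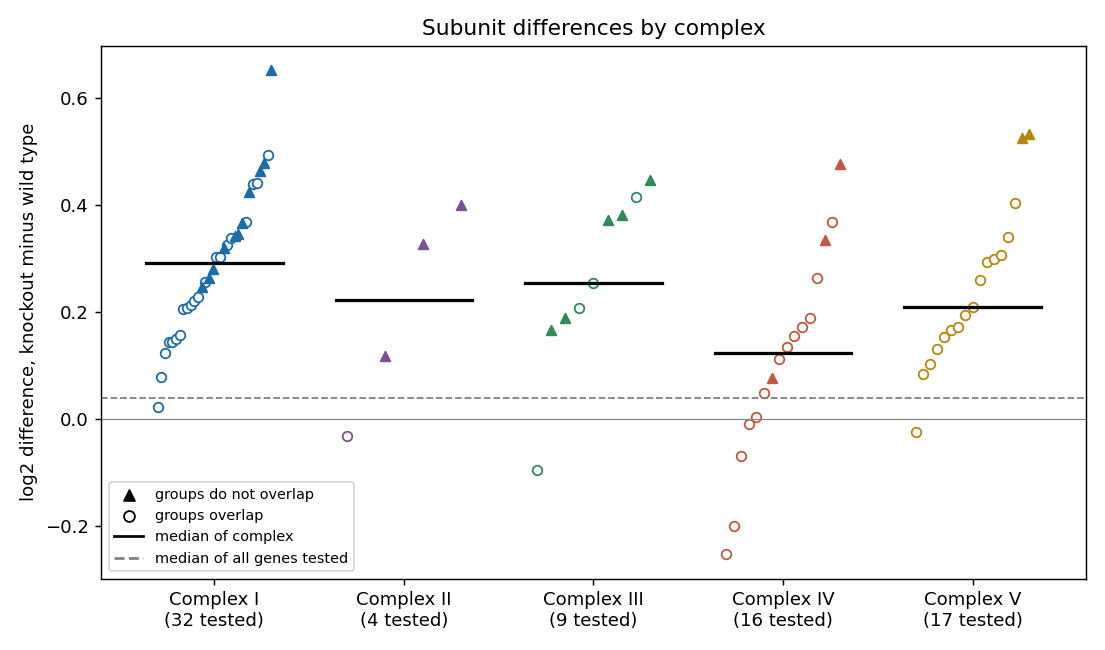
Log2 difference, knockout minus wild type, of each tested subunit by complex, with filled triangles where both knockout arrays were above both wild type arrays, open circles where the groups overlapped, bars at the medians and a dashed line at the median of all genes tested (0.04). All 32 complex I points lie above 0, and the lowest points of the plot are in complex IV.

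Complex I is an L-shaped machine whose catalytic core carries the NADH site and the iron-sulphur clusters. The core subunits measured by a probe set of their own numbered 6, and their median difference was 0.43, with all 6 above 0. Ndufs7, which carries the last cluster before ubiquinone, read 7342 and 9668 in wild type against 10128 and 17316 in knockout. Knockout replicate 2 was far above the other 3 arrays, the groups did not overlap, and the difference of 0.65 ± 0.30 (SE) was the highest of all subunits. It did not pass the test (adjusted p = 0.875, limma). Its other probe set gave 0.60. Without knockout replicate 1, Ndufs7 was at 1.04, a value that rests on knockout replicate 2 as the only knockout array.

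Ndufv1 holds the NADH site. It read 7257 and 7552 in wild type against 8735 and 11305 in knockout, a difference of 0.42 ± 0.20 (SE). The groups did not overlap, and its other probe sets gave 0.47 and 0.45. Ndufv2, its neighbour in the NADH module and named here after its values were seen, read 6159 and 8338 against 7756 and 13110, a difference of 0.49 ± 0.29 (SE). The groups overlapped, since knockout replicate 1 was below wild type replicate 2. Its other probe sets gave 0.53 and 0.98. Without knockout replicate 1, Ndufv2 was at 0.87, again with 1 knockout array left.

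The remaining core subunits had the same sign. Ndufs1, the largest iron-sulphur subunit, read 6299 and 6698 in wild type against 9187 and 7155 in knockout, a difference of 0.32 ± 0.19 (SE). Unlike most subunits, it was highest on knockout replicate 1. Ndufs3 read 12136 and 15405 against 14192 and 24189, a difference of 0.44 ± 0.31 (SE) resting on knockout replicate 2. Ndufs8 read 6475 and 8577 against 8313 and 10667, a difference of 0.34 ± 0.22 (SE). Both overlapped between groups.

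The accessory subunits surround the core and are needed for its assembly and stability. All 26 tested were above 0, from 0.02 (Ndufa9) to 0.48 (Ndufa5), with a median of 0.25, and 8 did not overlap, or 30.8%, against 21.5% of all genes. Ndufb2, a membrane-arm subunit, read 4368 and 4166 in wild type against 5596 and 6190 in knockout, with each group tight. Its difference of 0.46 ± 0.17 (SE) had an unadjusted p of 0.027 and an adjusted p of 0.875 (limma), but its other probe sets gave 0.19 and -0.26. Ndufa5, whose promoter is printed above and which was named after its values were seen, read 11720 and 11648 against 13953 and 18982, a difference of 0.48 ± 0.24 (SE) with no overlap. The other Ndufa5 probe set, also bright, gave 0.24. Ndufa13, also known as a cell death regulator, read 11344 and 18785 against 14217 and 27601. It had the widest range of the tested complex I subunits, each replicate 2 array well above its replicate 1 partner, and its difference of 0.44 ± 0.39 (SE) became -0.04 without knockout replicate 2. Below the filter, Ndufb1 read 178 to 309 and Ndufb4 24.4 to 96.4.

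Complex II is succinate dehydrogenase, the only complex shared with the tricarboxylic acid cycle and the only one wholly encoded in the nucleus. Sdhb, its iron-sulphur subunit, read 5357 and 6281 in wild type against 7847 and 7467 in knockout, a difference of 0.40 ± 0.18 (SE). Sdhc, a membrane anchor, read 5388 and 6078 against 7078 and 7281, a difference of 0.33 ± 0.17 (SE). Both had tight groups without overlap, with unadjusted p of 0.0577 and 0.0966 and adjusted p of 0.875 (limma). The other Sdhc probe set gave 0.01. Sdha, the flavoprotein with the succinate site, read 10214 and 11271 against 11902 and 11378, a difference of 0.12 ± 0.19 (SE). Its groups did not overlap, although the nearest arrays of the 2 groups were close together. Sdhd, the other anchor, read 14651 and 17373 against 15391 and 15829, a difference of -0.03 ± 0.23 (SE) with both knockout arrays inside the wild type range. Averaging all probe sets of a gene moved Sdha to -0.21 and Sdhd to 0.06. The second bright Sdha probe set gave 0.13, and only dim ones, at or under 641 on every array, went the other way (-0.52 and -0.57). The other Sdhd probe set, also bright, gave 0.15, so the direction of Sdhd rests on the choice of probe set.

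Complex III passes electrons from ubiquinol to cytochrome c through its cytochrome b, cytochrome c1 and Rieske subunits, the first of which is mitochondrially encoded. Cyc1, cytochrome c1, read 6246 and 6195 in wild type against 10177 and 7070 in knockout, a difference of 0.45 ± 0.22 (SE) and the highest of the complex. The groups did not overlap, and here knockout replicate 1 was the highest array. Uqcrfs1, the Rieske protein, read 7873 and 8019 against 9379 and 8468, a difference of 0.17 ± 0.18 (SE), also highest on knockout replicate 1. Uqcrc1, a core protein, read 4220 and 6345 against 5562 and 6420, a difference of 0.21 ± 0.23 (SE). Uqcrc2, the other core protein, read 7874 and 11046 against 9253 and 16708, a difference of 0.41 ± 0.32 (SE). The groups of both overlapped, and without knockout replicate 2 the Uqcrc2 difference was -0.01. A second Uqcrc2 probe set at nearly the same level read 9268 and 10569 against 10940 and 12179, a difference of 0.22 without overlap.

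The small subunits of complex III were above 0 in 4 of 5. Uqcr11, whose promoter is printed above, read 4441 and 4824 in wild type against 5654 and 6432 in knockout, a difference of 0.38 ± 0.17 (SE) with unadjusted p of 0.0613 and adjusted p of 0.875 (limma). Uqcr10 read 7097 and 8214 against 9141 and 10694, a difference of 0.37 ± 0.19 (SE). Neither overlapped between groups. Uqcrb, which binds near the ubiquinone pocket, was the exception. It read 24424 and 34422 against 23844 and 30886, a difference of -0.10 ± 0.34 (SE), far inside the spread of its wild type arrays, and its other probe set gave -0.06.

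Complex IV, cytochrome c oxidase, has nuclear subunits around a core encoded by mitochondrial DNA. The 11 subunits that are not themselves tissue-restricted forms, all tested, had a median of 0.13, with 10 above 0 and differences of up to 0.33. Cox4i1 read 14506 and 17439 in wild type against 15243 and 19393 in knockout, a difference of 0.11 ± 0.25 (SE). Cox5a read 18166 and 19739 against 20129 and 19028, a difference of 0.05 ± 0.25 (SE). Both overlapped. The other Cox5a probe sets, also bright, gave -0.02 and 0.22, so its direction rests on the choice of probe set. Cox5b read 16638 and 19747 against 17766 and 22942, a difference of 0.16 ± 0.27 (SE). Cox8a, the common form of the smallest subunit, was the highest of these at 3977 and 4602 against 4922 and 5914, a difference of 0.33 ± 0.18 (SE) without overlap, and its second bright probe set gave 0.53. Ndufa4 read 9670 and 12447 against 10290 and 10635, a difference of -0.07 ± 0.21 (SE).

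The tissue-restricted forms had no common direction: 2 of the 5 tested were above 0, with a median of -0.01. Cox6a2, Cox7a1 and Cox8b, the heart and skeletal muscle forms, were all highest on knockout replicate 1. Cox7a1 read 2198 and 2024 in wild type against 3732 and 898 in knockout, so the 2 knockout arrays lay on either side of both wild type arrays, with a difference of -0.20 ± 0.58 (SE). Without knockout replicate 1 it was -1.22, and without knockout replicate 2 it was 0.82, each with 1 knockout array left. Cox6a2 read 4871 and 3986 against 6835 and 4732, a difference of 0.37 ± 0.23 (SE) with overlapping groups. Its other probe set, also highest on knockout replicate 1, read 1154 and 720 against 1732 and 541, a difference of 0.09, and had the array order of Cox7a1. Cox8b read 1980 and 2153 against 3514 and 2354, a difference of 0.48 ± 0.24 (SE) without overlap. On their chosen probe sets, these 3 genes shared their highest array and little else of their order.

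Heart muscle markers had the same highest array. Of 10 heart genes, 9 were highest on knockout replicate 1, and their summed signals were 69491 and 47114 in wild type against 118430 and 48752 in knockout. Myh6, the atrial and adult ventricular myosin, read 9554 and 3202 against 16214 and 294. Nkx2-5, a heart transcription factor, read 19.1 and 28.5 against 281 and 14.8, highest on knockout replicate 1 but below the filter on every array. The order knockout 1, wild type 1, wild type 2, knockout 2 was found for 7 of the 10 heart genes, for 2 of 78 subunits, Cox7a1 among them and both in complex IV, and for 7.76% of all genes tested. Ppargc1a, a coactivator of mitochondrial genes, had it too, at 2250 and 1961 against 3960 and 996. The part of heart muscle RNA in the values of Cox6a2, Cox7a1 and Cox8b was not tested. Skeletal muscle markers had summed signals of 172040 and 243550 against 184420 and 257070, with 11 of 16 tested above 0, against 55.9% of all genes. Members of that list differed: the adult fast myosins Myh4 (1187 and 1599 against 390 and 115) and Myh1 (4825 and 5997 against 2120 and 710) were lower on both knockout arrays, with adjusted p of 0.875 (limma).

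Cox4i2, the form known from lung, Cox6b2, known from testis, and Ndufa4l2, known from cells short of oxygen, were not higher in the labelled knockout. Cox4i2 was below the filter at 350 and 397 in wild type against 250 and 283 in knockout, and was lower on both knockout arrays, a difference of -0.46 that was not tested. Ndufa4l2 read 1833 and 1281 against 1114 and 1479, a difference of -0.25 ± 0.28 (SE) and the lowest of the tested subunits. Cox6b2 read 2923 and 3488 against 2786 and 3611, a difference of -0.01 ± 0.21 (SE). The testis forms Cox7b2 and Cox8c stayed at or under 115 on every array.

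A log2 ratio of each restricted form to its common partner removes what both share on an array. Only differences of such a ratio between arrays are read here, since 2 probe sets are not on one scale. The ratio of Cox4i2 to Cox4i1 lay at 0.33 and 0.24 from its 4-array mean in wild type against -0.20 and -0.38 in knockout, a difference of -0.58. Cox4i2 is below the level filter, and after quantile normalisation this difference was -0.25. The ratio of Cox6b2 to Cox6b1 lay at 0.17 and 0.02 against -0.04 and -0.14, a difference of -0.18. These were the pairs of the 6 whose groups did not overlap, and the exact two-sided p of 2 arrays against 2 cannot go below 0.333. That is also the share of pairs expected not to overlap if the labels made no difference, and these pairs do not exceed it. The ratio of Cox7a1 to Cox7a2 lay at 0.59 and -0.21 against 1.21 and -1.60, that of Cox6a2 to Cox6a1 at 0.38 and -0.48 against 0.60 and -0.50, and that of Cox8b to Cox8a at -0.03 and -0.12 against 0.49 and -0.35. All 3 muscle forms were highest relative to their partners on knockout replicate 1. Cox7a1 and Cox8b were lowest on knockout replicate 2, while Cox6a2 was almost equally low on wild type replicate 2 and knockout replicate 2. The ratio of Ndufa4l2 to Ndufa4 lay at 0.53 and -0.35 against -0.27 and 0.09, with overlap.

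**Figure D4:**
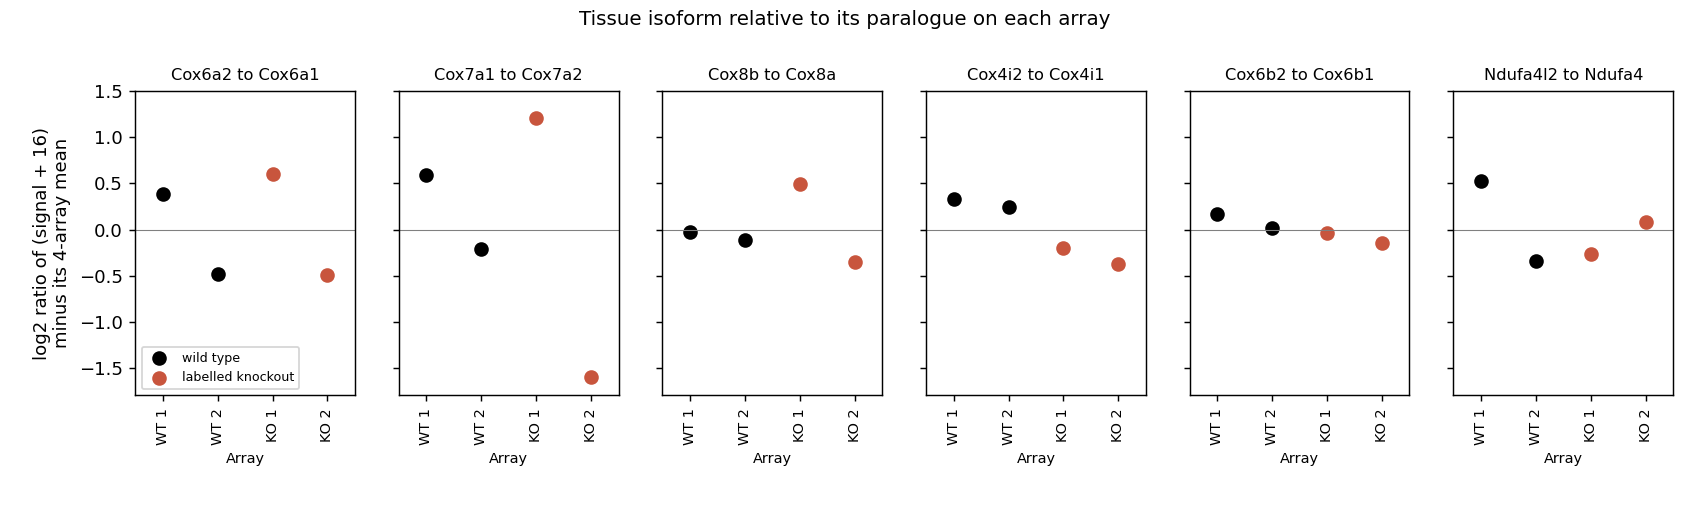
Log2 ratio of a tissue-restricted form to its common partner on each array, minus the mean of that ratio over the 4 arrays, for 6 pairs, with wild type in black and labelled knockout in red. Cox4i2 and Cox6b2 are lower relative to their partners on both knockout arrays, and the 3 muscle forms are highest on knockout replicate 1. Cox7a1 and Cox8b are lowest on knockout replicate 2, and Cox6a2 is almost equally low on wild type replicate 2 and knockout replicate 2.

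Complex V joins a catalytic F1 head to a membrane part with a rotating ring of c subunits. The 5 F1 subunits were all above 0, with a median of 0.26, and all overlapped between groups. Atp5a1 read 19483 and 27472 in wild type against 22897 and 29632 in knockout, a difference of 0.17 ± 0.32 (SE). Atp5b, the catalytic beta subunit, read 14495 and 21435 against 16443 and 24756, a difference of 0.19 ± 0.32 (SE). Both replicate 2 arrays were above both replicate 1 arrays for this alpha and beta pair, and without knockout replicate 2 the differences were -0.01 and -0.10. Atp5c1, the central stalk gamma subunit, read 14340 and 18974 against 16768 and 26007, a difference of 0.34 ± 0.31 (SE). Its other probe set, much dimmer at 953 to 1558, gave -0.32. Atp5e, the epsilon subunit, read 10679 and 12724 against 12295 and 19346, a difference of 0.40 ± 0.28 (SE) and the highest in the head.

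The 3 c-ring genes are known to encode the same mature protein with different import sequences, and all 3 overlapped between groups. Atp5g1 read 9713 and 11114 in wild type against 10701 and 15419 in knockout, a difference of 0.31 ± 0.24 (SE). Atp5g2, whose promoter is printed above, read 7289 and 9015 against 8088 and 12189, a difference of 0.29 ± 0.25 (SE). Atp5g3 read 17746 and 25949 against 19386 and 26708, a difference of 0.08 ± 0.32 (SE). Averaging all probe sets moved Atp5g2 to -0.15, but its other probe sets were all below the level filter.

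The stalk and membrane subunits had a median of 0.17, with 8 of 9 above 0. Atp5l, subunit g of the membrane part, read 5863 and 5635 in wild type against 7605 and 9106 in knockout, a difference of 0.53 ± 0.18 (SE). Both wild type arrays were close together and clearly below both knockout arrays, and its unadjusted p of 0.0208 was the smallest of all subunits (adjusted p = 0.875, limma). Atp5md, a small subunit that helps the synthase pair up, read 8426 and 10374 against 10545 and 17159, a difference of 0.52 ± 0.28 (SE). Its groups did not overlap, although knockout replicate 1 was only just above wild type replicate 2. Atp5pb, the peripheral stalk subunit b, read 15980 and 19396 against 16535 and 18098, a difference of -0.03 ± 0.24 (SE). Its other probe set gave 0.23.

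Other probe sets of the same genes gave a second reading. The 83 genes had 170 probe sets, and 66 of those not chosen, for 43 genes, were above the median level. Of these, 60 were higher in the labelled knockout, their median was 0.27, and 59 had the sign of the chosen probe set. They come from the same 4 RNA samples and are not further replicates.

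Other mitochondrial genes were read from lists. For comparison, 55.9% of all genes tested were above 0. At an unadjusted p under 0.05 (limma), 2.83% of all genes were higher. Assembly factors, which build the complexes and are not part of them, were above 0 for 13 of 14 with complex I (median 0.20) and for 23 of 27 with complexes II to V (0.19). None passed the test, 1 and 3 of them had an unadjusted p under 0.05 (limma), and the smallest among the former was that of Nubpl, an iron-sulphur carrier for complex I, at 1812 and 1923 against 2447 and 3716, a difference of 0.69 ± 0.25 (SE). Tricarboxylic acid cycle genes were above 0 for 16 of 16 (0.24), genes of mitochondrial import and inner membrane organisation for 20 of 20 (0.31), and mitochondrial ribosomal protein genes for 73 of 76 (0.33), with 0 of these passing and 1, 3 and 9 at an unadjusted p under 0.05 (limma). The ribosomal protein genes did not overlap between groups for 48 of the 76, against 21.5% of all genes in this direction. As with most subunits, knockout replicate 2 was highest for 59 of these 76 and for 15 of the 20 import genes. The medians within replicate 1 and replicate 2 were 0.21 and 0.44 for the ribosomal protein genes and 0.21 and 0.40 for the import genes. For the tricarboxylic acid cycle genes they were 0.34 and 0.16. Cytochrome c and coenzyme Q synthesis genes were above 0 for 9 of 13 (0.19), and carriers with the ATP synthase inhibitor for 5 of 7 (0.21). Cycs, cytochrome c itself, was among the exceptions at 18815 and 19256 against 19155 and 12789, a difference of -0.28 ± 0.28 (SE).

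Regulators of mitochondrial gene expression did not share the direction: 9 of 15 were above 0, with a median of 0.03, near that of all genes. Esrra, a nuclear receptor that acts on respiratory genes, read 705 and 899 in wild type against 549 and 323 in knockout. Both knockout arrays were lower, a difference of -0.89 ± 0.35 (SE) with unadjusted p of 0.0372 and adjusted p of 0.875 (limma). Nrf1, whose motif is marked in the promoters above, read 1211 and 882 against 731 and 732, a difference of -0.49 ± 0.28 (SE). Polrmt, the mitochondrial RNA polymerase, read 2203 and 1548 against 2923 and 2492, a difference of 0.54 ± 0.24 (SE). The mitochondrially encoded complex I subunit ND5, on the array as 1 probe set, read 21222 and 29648 against 20747 and 18506. It was lower on both knockout arrays, a difference of -0.36 ± 0.29 (SE) with adjusted p = 0.881 (limma), while all 32 tested nuclear subunits of its complex were above 0.

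**Figure D5:**
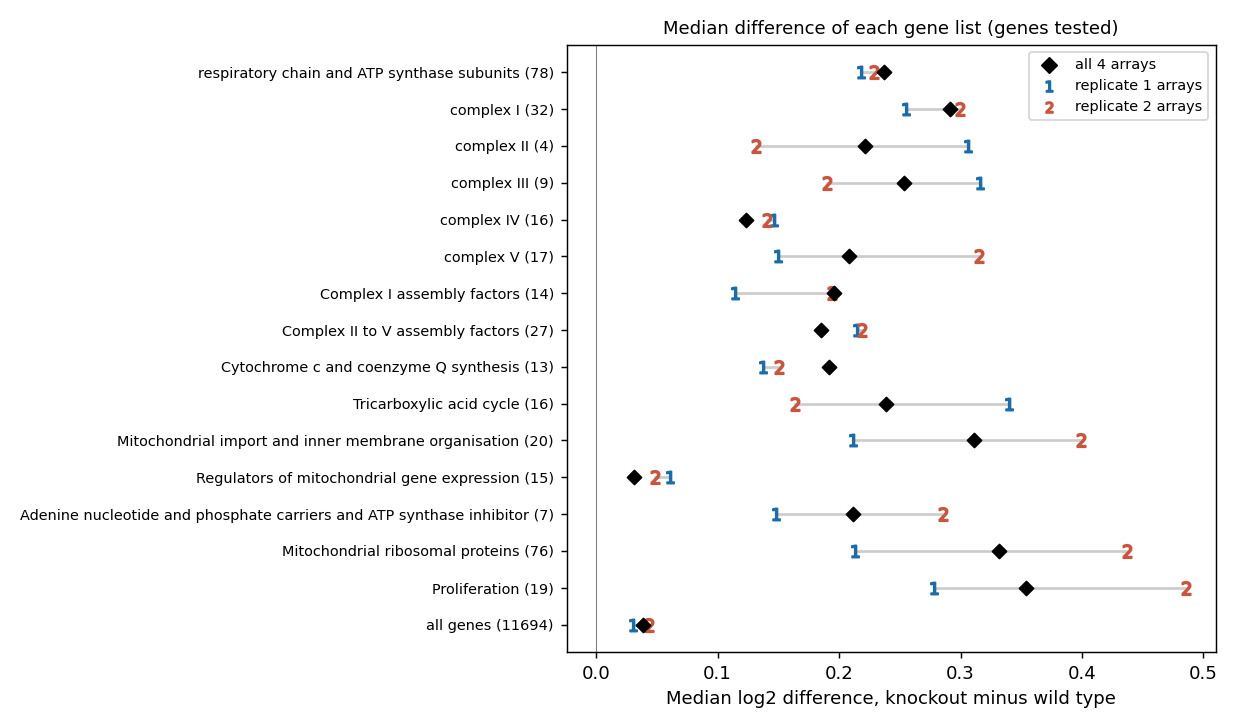
Median log2 difference, knockout minus wild type, of each gene list over all 4 arrays (black diamonds) and within the replicate 1 and replicate 2 arrays (digits), with the number of genes tested in brackets. Most mitochondrial lists lie between 0.19 and 0.33, while complex IV (0.12), regulators (0.03) and all genes (0.04) lie lower.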

How the data were processed

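RNA was isolated with Trizol, amplified by SPIA and labelled with biotin, as the labels' protocols state. The deposited values are intensities on a linear scale, 1 per probe set and array, which the authors computed by MAS5, according to the submitters' processing notes, with settings not given in the sources used here. After the scaling per array, upper ranges of signal still differ, which can shift bright genes as a group.

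Of 45037 probe sets other than controls, 34945 carried 1 gene in GEO's platform annotation, and symbols were brought up to date through the RefSeq gene table. Probe sets listing several genes were left out, 10 of them with a subunit symbol. log2(signal + 16) was fitted with limma 3.58.1 in R 4.3.3 (lmFit, eBayes with intensity trend) over 11694 genes above the median level (50th percentile) of the probe sets, with Benjamini-Hochberg adjustment and a threshold of 0.05, after the code was tested on simulated data. Only 4 arrays limit the precision. Motifs were searched in RefSeq windows with Python 3.11.15.

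Members, complexes, lists and tests were chosen with earlier results of these data known. Named were core subunits, tissue isoforms, per complex and direction up to 3 members of smallest p, and the 5 of widest range. Ndufv2, Ndufa5, Cox6a1, Cox7a2, Cycs, Nrf1, Myh6, Nkx2-5, Ppargc1a, Ucp1, Cidea, Prdm16, Dio2, Myh1, Myh4 and ND5 were named after their values were seen. Alternatives were other pseudocounts, filters, normalisation, weights, probe set averages, a replicate block and leaving out arrays.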

Additional observations from a re-analysis of the deposited data

How the results depend on the processing

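No gene passed the threshold of 0.05 in the fits that kept all 4 arrays, with an unadjusted p under 0.05 for 309 to 1359 genes besides the stricter 90th percentile filter (102), which was chosen after seeing the data. Without wild type replicate 1, wild type replicate 2, knockout replicate 1 and knockout replicate 2 in turn, 0, 1, 492 and 104 genes passed, a range of 0 to 492, and 0 to 3 subunits. A lone array left in a group was assumed to vary like the other group. Over these, the median of the subunits ran from 0.04 to 0.41, against 0.02 to 0.06 over all genes. The number above 0 ran from 47 to 76 of 78, against 51.9% to 57.2% of all genes. The medians of complexes I to V ran from 0.081 to 0.42, 0.14 to 0.30, 0.17 to 0.44, -0.016 to 0.18 and -0.011 to 0.50. Ratio differences ran from -0.44 to 0.65 (Cox6a2 to Cox6a1), -1.79 to 1.01 (Cox7a1 to Cox7a2), -0.28 to 0.56 (Cox8b to Cox8a) and -0.62 to 0.25 (Ndufa4l2 to Ndufa4).

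Centring each array on its median moved the median of all genes from 0.04 to 0.27 and the share above 0 from 55.9% to 82.6%. The subunits stood at 0.47, still 0.20 above all genes, and complexes I to IV at 0.52, 0.45, 0.49 and 0.36. Atp5pb (0.21), Cox6b2 (0.22), Cox7a1 (0.033), Ndufa4 (0.16), Sdhd (0.20) and Uqcrb (0.14) then changed sign. Quantile normalisation moved the Cox4i2 to Cox4i1 difference to -0.25. Averaging probe sets moved complex II to 0.11 and turned Atp5g2 (-0.15), Atp5pb (0.10), Sdha (-0.21) and Sdhd (0.058). Leaving out 1 array turned or first called these subunits: Atp5a1 (-0.077 to 0.42), Atp5b (-0.10 to 0.49), Atp5g2 (-0.0033 to 0.59), Atp5g3 (-0.19 to 0.36), Atp5pb (-0.17 to 0.11), Cox4i1 (-0.061 to 0.29), Cox5a (-0.012 to 0.11), Cox5b (-0.029 to 0.34), Cox6a1 (-0.025 to 0.55), Cox6b2 (-0.20 to 0.18), Cox7a1 (-1.22 to 0.82), Cox7a2 (-0.20 to 0.57), Ndufa13 (-0.038 to 0.92), Ndufa4 (-0.25 to 0.11), Ndufa4l2 (-0.51 to 0.0023), Ndufs7 (0.27 to 1.04), Ndufv2 (0.11 to 0.87), Sdhd (-0.15 to 0.091), Uqcrb (-0.34 to 0.15), Uqcrc1 (-0.086 to 0.50) and Uqcrc2 (-0.011 to 0.84). The cause of these shifts was not tested.

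The samples share replicate numbers only: deviations of same-numbered arrays correlated at 0.32 over genes, with 2 pairs. With the replicate block, 0 genes passed, 1359 had an unadjusted p under 0.05, and the smallest adjusted p of a subunit was 0.411, with the median at 0.24. A 95% interval of about 0.57 to either side, close to that of a typical subunit, exceeds the median difference.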

Other observations

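Some markers of tissues beside the trachea wall were high on single arrays. Brown fat genes were highest on wild type replicate 2 for 3 of 5 on the array, with summed signals of 4979 and 10782 in wild type against 3738 and 5000 in knockout. Ucp1, the heat-making carrier of brown fat, read 219 and 4434 on the wild type arrays and 115 and 80.4 on the knockout arrays, and Cidea, another brown fat gene, read 286 and 2700 against 368 and 344. Both were high on wild type replicate 2 alone, where the median subunit stood at 0.01 from its 4-array mean, while Prdm16 was highest on wild type replicate 1 (2183) and Dio2 on knockout replicate 2 (3174). Salivary gland genes were highest on the same array for 5 of 6, and T cell genes on knockout replicate 1 for 9 of 11, with summed signals of 5785 and 16124 against 33251 and 13155.

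Several lists of airway cells had medians below 0. Chondrocyte genes had a median of -0.31, with 12 of 15 below 0, multiciliated cell genes -0.41, with 10 of 12 below 0, secretory and gland genes -0.38, with 9 of 11 below 0, and smooth muscle genes -0.40, with 8 of 10 below 0. The smooth muscle median was 0.29 within the replicate 1 arrays and -0.80 within the replicate 2 arrays, with 2 of 10 genes lower in both and 2 higher in both, so its sign differed between the replicate numbers. Erythroid genes were above 0 for 5 of 5 tested, with a median of 0.42. Over all genes tested, 55.9% were above 0. None of the genes in these lists passed the test (limma). At an unadjusted p under 0.05, 3, 3, 1 and 1 genes of those 4 lists were lower, against 1.75% of all genes. No erythroid gene had an unadjusted p under 0.05. The part of these cell types in the subunit values was not tested.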
